A study of Rattus norvegicus with 3 samples.

Results

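This account covers the genes on a rat expression array that move chloride, bicarbonate and sodium across the membranes of salivary gland cells, with the sodium pump that drives them. They were chosen by the gene name in the array files. A non-control probe was taken if its name began with Slc4a, Slc9a, Slc12a, Slc26a, Scnn1, Clcn, Clca, Clic, Atp1a, Atp1b or Fxyd, or was Cftr, Ano1 or Tmem16a. The rule took 96 of 41012 probes, and these stand for 75 of 15991 genes that could be named and had a usable probe. It used no measured value. Total RNA came from 3 salivary glands, the parotid, the submandibular and the sublingual, of male Wistar rats 10 weeks old with no treatment named, and 1 Agilent array per gland received its Cy3-labelled RNA. The series' design text speaks of 3 rats, but nothing in the sources used here says which animal or animals stand behind an array. No gland has a replicate, so every value stands for a single array without a p-value, and precision is limited by how few arrays there are.

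Salivary glands form their fluid in stages. Acinar cells load chloride through their basolateral membrane, mainly by the sodium-potassium-chloride cotransporter Slc12a2 and by paired chloride-bicarbonate and sodium-proton exchangers, and release it into the lumen through the calcium-activated channel Ano1; sodium and water follow. Duct cells then take sodium and chloride back, with the epithelial sodium channel Scnn1 and Cftr in their luminal membrane, and add bicarbonate. The sodium pump, built from Atp1a catalytic and Atp1b accessory subunits and tuned by small Fxyd proteins, sets the sodium gradient that all of these use.

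A level below is the log2 of the processed signal minus the 75th percentile of its array, so it can be compared between arrays for 1 gene but not between genes, whose probes differ in brightness. Where a probe was not well above background on the dimmer array, the fold is a lower bound under this processing and is written "at least". Over the 9484 genes that every array measured above background, the array with the submandibular label and the sublingual array were almost alike (r = 0.991 across genes, which are not independent), and each stood further from the parotid array (r = 0.921 and 0.919). The arrays share 1 slide and 1 scan, so position on the slide and gland cannot be told apart. All 6 serous acinar markers were highest on the parotid array, by 2-fold or more against both others. All 6 mucous markers were lower there by 2-fold or more than on the array with the submandibular label, and so were the 5 that could be set against the sublingual array. Of 5 probed products of the granular ducts that distinguish the submandibular gland of male rats, none was 2-fold higher on the array with that label than on both other arrays, so it is called submandibular-labelled here. Markers of several other cell types differed from the parotid too. On the submandibular-labelled array 3 of 6 duct epithelium and 4 of 4 myoepithelial markers were 2-fold or more higher, beside 10.9% of all genes compared. Lower by as much were 4 of 6 nerve and Schwann cell, 3 of 4 immune and 3 of 3 adipocyte markers, beside 11.3%. On the sublingual array 3 of 6 duct epithelium markers were 2-fold or more higher and 1 lower. There 3 of 4 myoepithelial markers were higher, beside 12.5% of all genes. Lower were 2 of 6 nerve and Schwann cell, 3 of 4 immune and 2 of 3 adipocyte markers, beside 12.2%. The part of these cell types in the results below was not tested. In whole glands, fewer cells of a type and less RNA per cell cannot be told apart.

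Of the 75 transport genes, 43 were well above background on all 3 arrays, 8 on some and 24 on none. Over all named genes, 9484 of 15991 were so on all 3 arrays. Set against the parotid, several genes of acinar chloride secretion and bicarbonate supply were lower on the other arrays, among them Slc12a2, Ano1, Slc4a4 and Slc4a8, as was the pump regulator Fxyd6. Scnn1g, Slc9a2, Clcn5 and Slc12a8 were 2-fold or more higher on both, and Scnn1b on the submandibular-labelled array. On the submandibular-labelled array, 6 of 50 compared genes (12%) exceeded the parotid by 2-fold or more, beside 10.9% of all genes compared, and 10 (20%) at least 2-fold lower, beside 11.3%. On the sublingual array, 4 of 50 (8%) were at least 2-fold higher, beside 12.5%, and 14 (28%) at least 2-fold lower, beside 12.2%. At 4-fold, 1 gene was higher (all genes: 2.87%) and 2 lower (2.8%) on the submandibular-labelled array, and 1 higher (3.04%) and 3 lower (2.82%) on the sublingual array. The shares of higher genes lay near those of all genes, and the shares at least 2-fold lower lay above them. The median log2 difference from the parotid was -0.31 on the submandibular-labelled array, where that of all genes was 0.10, and -0.38 on the sublingual array, where that of all genes was 0.06. Centring each array on its median instead moved all genes up by 0.31 and 0.23, and the transport genes' medians then lay at 0.000577 and -0.14. With that centring 9 genes were 2-fold higher and 7 lower on the submandibular-labelled array, and 7 higher and 10 lower on the sublingual array; the shares of all genes were not recomputed for it. Both comparisons share the parotid array.

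**Figure D1:**
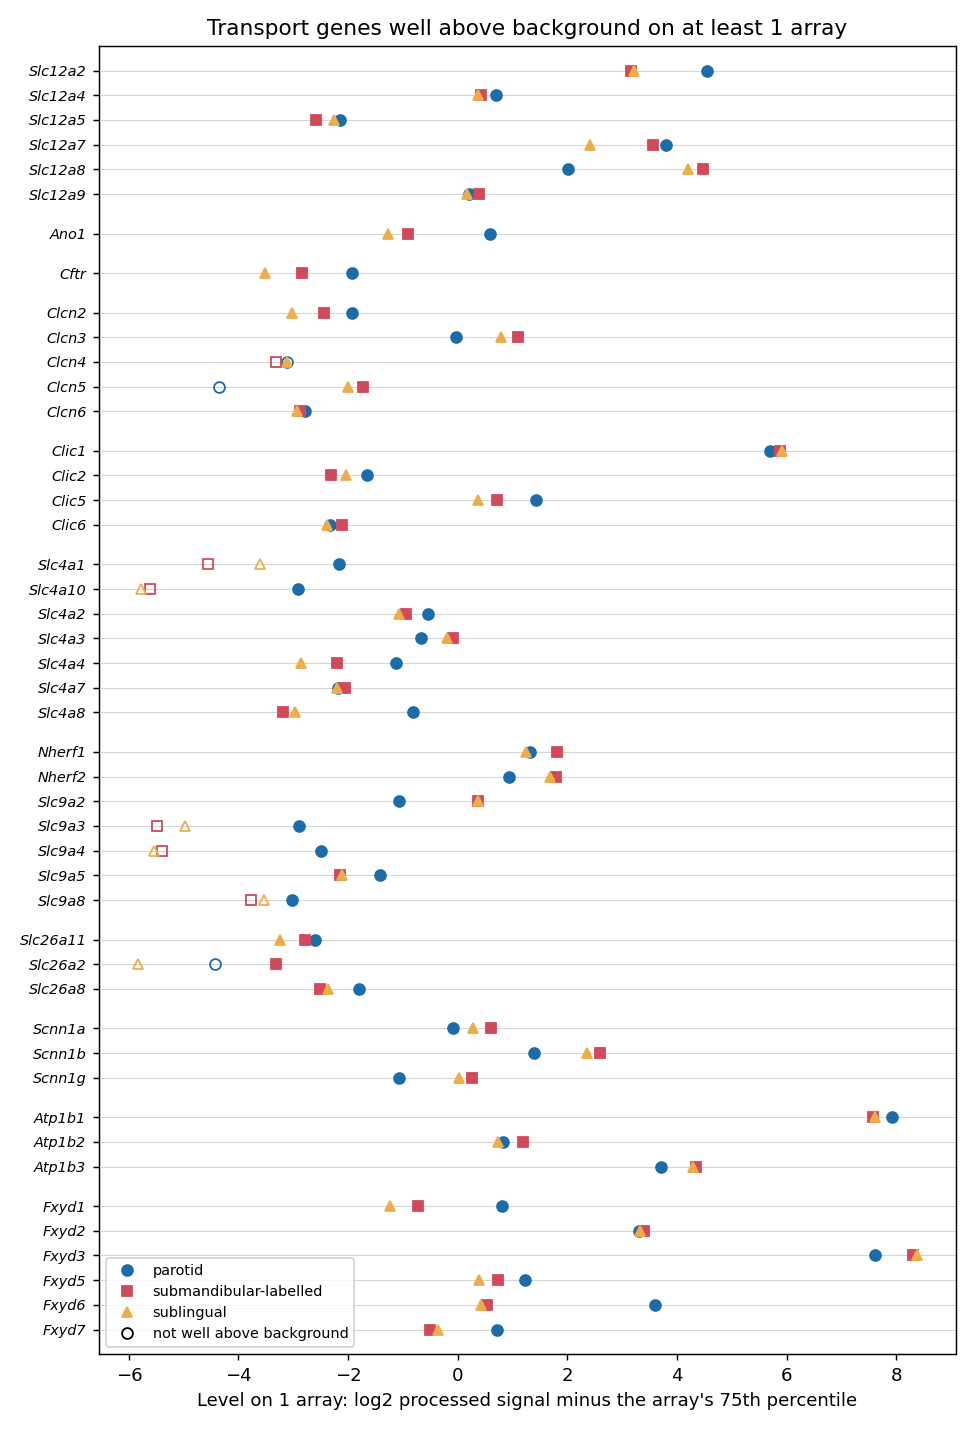
Level of 46 transport genes that were well above background on at least 1 array, on the parotid (blue circles), submandibular-labelled (red squares) and sublingual (yellow triangles) arrays, grouped by family; the horizontal axis is log2 signal relative to the array's 75th percentile, and open symbols were not well above background. Each symbol is 1 array. The squares and triangles lie close together for most genes, and Fxyd6 shows the widest gap from the parotid, at 3.60 against 0.53 and 0.42.

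Chloride enters the acinar cell with sodium and potassium through Slc12a2. Its brighter probe was at 4.55 (parotid), 3.15 (submandibular-labelled) and 3.22 (sublingual). The parotid level was the highest, 2.63-fold and 2.51-fold above the others, and the difference stayed over 2-fold under all 8 alternatives run. A second Slc12a2 probe, printed 10 times on each array, gave the same direction: its spots lay between 1.75 and 1.98 in the parotid, between 0.34 and 0.62 on the submandibular-labelled array and between -0.11 and 0.02 on the sublingual array, where 8 spots were usable. The ranges of the 3 arrays did not overlap, and this probe placed the sublingual level 0.54 below the submandibular-labelled one, whereas the brighter probe placed it 0.07 above. The brighter probe lies at chr18:53739918-53739977 and the other at chr18:53700271-53702611 in rn4, the build of the files.

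The other members of the Slc12a family followed different courses. Slc12a8, a divergent member, was at 2.02 (parotid), 4.47 (submandibular-labelled) and 4.19 (sublingual). It exceeded its parotid level 5.47-fold and 4.51-fold, and no other transport gene passed 4-fold in that direction by a measured value or a bound. Clcn5, given below as a lower bound, had log2 differences of 2.62 and 2.34 when no bound was set, past 4-fold on both arrays. The lowest Slc12a8 difference on the sublingual array over the alternatives was 1.91 on the log2 scale, under 4-fold. Slc12a7, a potassium-chloride cotransporter that lets chloride leave the cell, was at 3.80, 3.56 and 2.41 in the same order. By its brightest probe it was 2.61-fold lower in the sublingual gland than in the parotid and 2.21-fold lower than on the submandibular-labelled array. With the median of its 5 probes the log2 differences shrank to -0.74 and -0.52. Single probes ran from -1.39 to -0.25 against the parotid. Against the submandibular-labelled array they disagreed in direction, from -1.14 to 0.78, so none is given for Slc12a7 in that pair. Slc12a4, another potassium-chloride cotransporter, Slc12a9, and Slc12a5, known from neurons, differed by less than 2-fold (log2 differences between -0.44 and 0.33 over all pairs). Slc12a1 and Slc12a3, the cotransporters of the kidney tubule, were not well above background on any array.

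The apical channel through which acinar chloride leaves, Ano1 (named Tmem16a in the files), was at 0.58 (parotid), -0.90 (submandibular-labelled) and -1.27 (sublingual). The parotid was again the highest, by 2.80-fold and 3.62-fold, and all 8 alternatives kept both differences over 2-fold. Not all of these could have changed them. For a gene above background on all arrays, such as Slc12a2 or Ano1, dropping the bounds or limiting the set to such genes leaves the value as it is. So does the median of the probes for a gene of 1 probe, such as Ano1, Slc4a8 or Scnn1b. The deposited values are the same signal over a constant for each array. Ano1 rests on 1 probe at chr1:205020227-205023057 (rn4). Slc12a2 and Ano1 make up the main route of chloride through the acinar cell and both were highest in the parotid, so the 250 bases before their RefSeq start sites are shown, 5′ to 3′, with GC boxes (GGGCGG on either strand) in capitals; the build is GRCr8, with Slc12a2 at chr18:53546083-53546332 on the plus strand and Ano1 at chr1:209329339-209329588 on the minus strand.
Slc12a2: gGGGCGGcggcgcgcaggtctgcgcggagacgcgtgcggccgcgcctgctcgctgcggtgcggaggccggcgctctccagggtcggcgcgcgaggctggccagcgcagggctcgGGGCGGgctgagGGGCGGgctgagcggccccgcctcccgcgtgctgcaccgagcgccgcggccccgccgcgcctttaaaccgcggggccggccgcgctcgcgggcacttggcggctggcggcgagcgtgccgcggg
Ano1: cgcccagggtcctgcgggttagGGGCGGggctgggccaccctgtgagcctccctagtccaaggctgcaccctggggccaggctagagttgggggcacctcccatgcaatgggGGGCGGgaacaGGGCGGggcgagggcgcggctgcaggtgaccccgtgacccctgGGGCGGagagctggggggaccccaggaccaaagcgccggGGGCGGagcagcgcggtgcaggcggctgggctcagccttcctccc
Both are rich in G and C, at 83.2% and 74.8% where the median of all 33469 entries in the table is 51.2%. They hold 3 and 5 GC boxes, a sequence found in 30.5% of all entries. Neither holds any of the 6 other motifs searched, listed with the sodium channel promoters below, and a match or its lack is a description of these letters only.

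Cftr, the cyclic AMP-gated chloride and bicarbonate channel of duct cells, was dim on every array. Its brighter probe was at -1.93 (parotid), -2.84 (submandibular-labelled) and -3.52 (sublingual), and its second probe was not well above background anywhere. The sublingual level was 3.01-fold below the parotid and the submandibular-labelled level 1.88-fold below, and the sublingual difference fell under 2-fold with normexp background correction and with the median of both probes, over a range from -1.77 to -0.59.

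The Clcn family holds membrane chloride channels and the chloride-proton exchangers of endosomes and lysosomes, and its members went in both directions. Clcn2, a hyperpolarisation-activated chloride channel, was at -1.94, -2.45 and -3.02, and only the sublingual difference of 2.12-fold passed 2-fold; it did not with normexp, quantile normalization or median centring.

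Of the vesicle exchangers, Clcn5 passed 2-fold on both arrays and Clcn3 on the submandibular-labelled array. Clcn5, which serves endosome acidification, was not well above background in the parotid (-4.35) and reached -1.73 (submandibular-labelled) and -2.00 (sublingual), so the rise over the parotid was at least 3.26-fold and 2.69-fold. Clcn3 was at -0.04, 1.09 and 0.79, above the parotid by 2.19-fold and 1.77-fold. Over the alternatives the lowest log2 differences were 0.71 and 0.55 for Clcn5, with both calls lost under normexp, and 0.84 and 0.57 for Clcn3. Clcn6 was at -2.79, -2.87 and -2.93 by its brighter probe. Its second probe was above background only in the parotid (-2.90), with log2 bounds of -0.75 and -0.84, and with the median of both probes the submandibular-labelled difference of Clcn6 was -1.50, so no direction is given. The 3 probes of Clcn4, of which the brightest was above background only on the sublingual array, disagreed in direction (log2 differences from -0.59 to 0.77 between the submandibular-labelled and parotid arrays), so none is given. Clcn1, the skeletal muscle channel, and Clcn7 of lysosomes were not well above background on any array.

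Despite their name, Clca genes encode secreted or membrane-anchored proteases that modulate channels, and none of the 4 (Clca1, Clca2, Clca4 and Clca5, under partly older names in the files) was well above background on any array. The Clic proteins are small proteins that occur both dissolved in the cytosol and in membranes. Of 6, 4 were well above background on all arrays. Clic5, which is tied to the actin cytoskeleton, was at 1.43 (parotid), 0.72 (submandibular-labelled) and 0.36 (sublingual). The sublingual difference was 2.10-fold, under 2-fold with normexp and median centring (smallest -0.83 on the log2 scale), and 1.64-fold was measured for the other array. Clic1 (5.70, 5.89 and 5.91), Clic2 (-1.66, -2.32 and -2.04) and Clic6 (-2.32, -2.12 and -2.38) stayed within 2-fold, and Clic3 and Clic4 were not well above background.

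**Figure D2:**
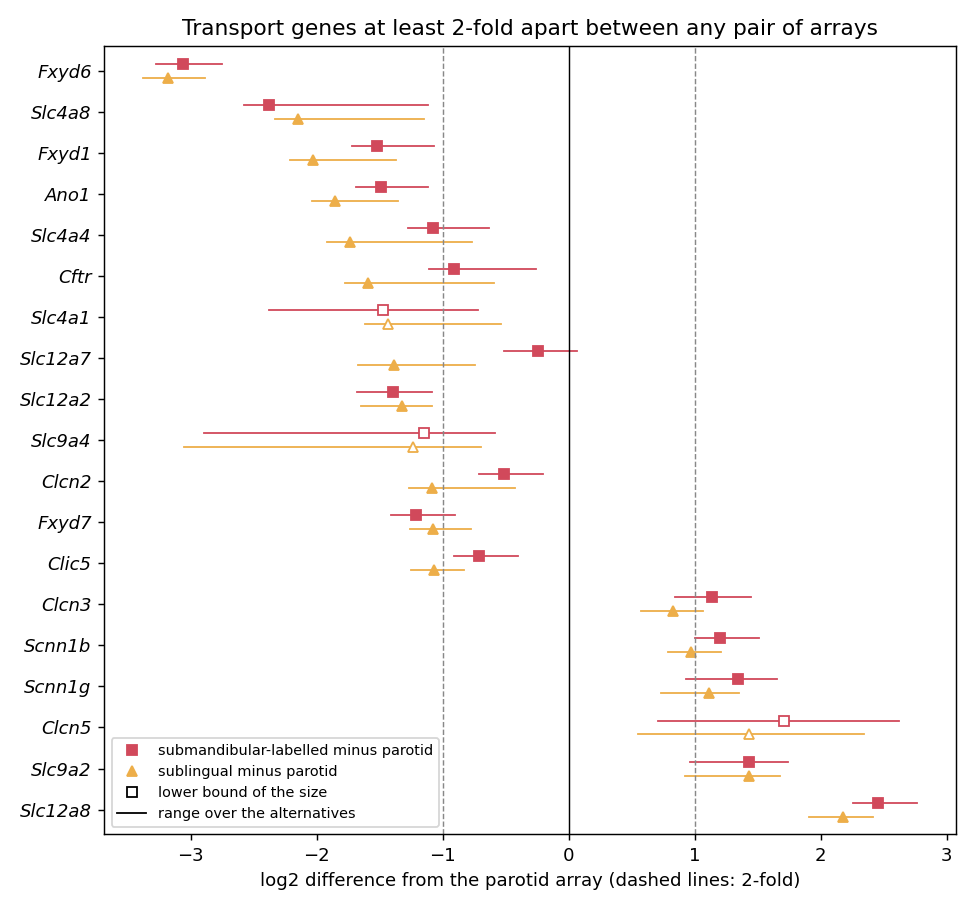
Log2 difference from the parotid array of 19 transport genes at least 2-fold apart between any pair of arrays, for the submandibular-labelled (red squares) and sublingual (yellow triangles) arrays; lines span the values under the alternative processing choices, open symbols are lower bounds of the size, and dashed lines mark 2-fold. The sublingual differences of 13 genes lie at or beyond the left dashed line and those of 4 beyond the right one, and no line of a difference past 2-fold crosses 0.

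Bicarbonate transport is shared by the Slc4a and Slc26a families. Among the Slc4a genes, 7 of 9 could be compared with the parotid; 3 were at least 2-fold lower and none 2-fold higher on each of the other arrays, where 11.3% and 12.2% of all genes were lower. Slc4a8, a sodium-driven chloride-bicarbonate exchanger, was at -0.81 (parotid), -3.19 (submandibular-labelled) and -2.96 (sublingual). It was 5.20-fold and 4.44-fold lower than in the parotid, and its difference stayed over 2-fold under all 8 alternatives, but with normexp it shrank to -1.12 and -1.15 on the log2 scale. Slc4a4, the electrogenic sodium-bicarbonate cotransporter of the basolateral membrane, was at -1.13, -2.20 and -2.86. It was 2.11-fold lower on the submandibular-labelled array, a difference that fell under 2-fold with normexp, quantile normalization and median centring, and 3.33-fold lower in the sublingual gland, which did so with normexp alone.

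Slc4a1, the anion exchanger of red blood cells, was at -2.17 in the parotid by its brighter probe. That probe was not well above background on the other arrays, a drop of at least 2.77-fold and 2.70-fold. The drop fell under 2-fold with normexp (-0.72 and -0.54 on the log2 scale). The second Slc4a1 probe was not well above background on any array, the parotid included. Markers of red cells differed less: of 3 probed, none was 2-fold lower on the submandibular-labelled array, 1 was on the sublingual array, and their summed log2 level was 2.62, 1.91 and 1.88. The part of red cells in the Slc4a1 difference was not tested. Slc4a2, the housekeeping chloride-bicarbonate exchanger, was at -0.55, -0.95 and -1.07, so that its differences of 1.32-fold and 1.44-fold stayed under 2-fold. Slc4a3 (-0.67, -0.08 and -0.20) and Slc4a7 (-2.19, -2.06 and -2.20) also did. Slc4a10, known from neurons, was at -2.92 in the parotid and not well above background elsewhere, which allows only a bound of at least 1.66-fold and 1.76-fold. Its second probe was not well above background on any array. Slc4a5 and Slc4a9 were not well above background on any array. Slc4a11, which the files list under a transcript identifier and the name rule therefore missed, was at 1.72, 0.00 and -0.35; it is named here after its values were seen.

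The Slc26a family, multifunctional anion exchangers, was dim. Of 8 probed, 5 were not well above background on any array, among them Slc26a3 and Slc26a4, chloride-bicarbonate exchangers of gut and of thyroid and inner ear, whose probes lie 45.8 kb apart on chromosome 6 (rn4). Slc26a11 was at -2.61 (parotid), -2.78 (submandibular-labelled) and -3.25 (sublingual), and Slc26a8, known from sperm, was at -1.81, -2.52 and -2.36. Slc26a2, the sulfate transporter of cartilage, was well above background only on the submandibular-labelled array (-3.32), a difference of at least 1.08-fold from the parotid and at least 1.33-fold from the sublingual array. Without a bound on the dim side the log2 differences of Slc26a2 were 1.11 (submandibular-labelled minus parotid) and -2.51 (sublingual minus submandibular-labelled), so a change over 2-fold cannot be denied for it. No other Slc26a gene above background passed 2-fold. Slc26a6 and Slc26a9 were not analysed here.

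Sodium-proton exchangers differed by isoform. Slc9a2, an epithelial isoform, was at -1.07, 0.36 and 0.37, hence 2.69-fold and 2.70-fold higher outside the parotid, though under 2-fold with normexp (lowest 0.96 and 0.93 on the log2 scale). Slc9a4, best known from stomach, went the other way: it was at -2.50 in the parotid and not well above background on either other array, a drop of at least 2.22-fold and 2.36-fold. Both Slc9a4 differences fell under 2-fold with normexp, quantile normalization and median centring (smallest -0.58 and -0.69 on the log2 scale). The probes of Slc9a2 and Slc9a4 lie only 144 kb apart on chromosome 9 (rn4).

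Slc9a3, the luminal exchanger that takes up sodium in ducts, intestine and kidney, was read by 10 spots per array. In the parotid 9 of the 10 were well above background, at a mean of -2.90 ± 0.26 (SD over 10 spots of 1 array). On the submandibular-labelled and sublingual arrays none of 10 was, and their spots lay between -5.86 and -5.03 and between -5.88 and -4.41. The parotid spots, from -3.36 to -2.60, thus lay above all others, but the lowest level that counts as above background allows only a difference of at least 1.68-fold and 1.79-fold. Slc9a5 (-1.42, -2.15 and -2.11) stayed within 2-fold, and Slc9a8 was above background only in the parotid (-3.02). Slc9a7 and Slc9c1 (Slc9a10 in the files) were not well above background. The name rule also took Nherf1 and Nherf2 (Slc9a3r1 and Slc9a3r2 in the files), scaffold proteins that hold Slc9a3 and Cftr at the membrane and are not transporters. Nherf1 was at 1.32, 1.81 and 1.24 and Nherf2 at 0.94, 1.80 and 1.69, all within 2-fold.

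The epithelial sodium channel, through which ducts take sodium back from the saliva, has 3 subunits, and each had a probe printed 10 times per array. Scnn1b was at 1.39 ± 0.06 in the parotid (SD, 9 spots), 2.59 ± 0.04 on the submandibular-labelled array (10 spots) and 2.36 ± 0.04 in the sublingual gland (10 spots). Scnn1g was at -1.08 ± 0.10 (7 spots), 0.27 ± 0.07 (10 spots) and 0.03 ± 0.08 (10 spots). Both were lowest in the parotid and highest on the submandibular-labelled array, and the spots of the arrays did not overlap for either gene. Scnn1b exceeded its parotid level 2.30-fold and 1.96-fold, and Scnn1g 2.54-fold and 2.16-fold. The repeat spots show the reading error within an array, far smaller than these differences, but nothing of the spread between animals. On the submandibular-labelled array Scnn1b stayed over 2-fold under all 8 alternatives (up to 1.51 on the log2 scale), and on the sublingual array it passed 2-fold only with median centring. Scnn1g fell under 2-fold with normexp on both arrays (lowest 0.93 and 0.74 over the alternatives).

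Scnn1a, the subunit without which the channel conducts little, was at -0.08 ± 0.09 in the parotid (10 spots), 0.62 ± 0.05 on the submandibular-labelled array (10 spots) and 0.27 ± 0.04 in the sublingual gland (7 spots). The order of the arrays was the same as for the other subunits, with differences of 1.62-fold and 1.28-fold. Its second probe, of 1 spot and at chr4:161466887-161467055 (rn4), read otherwise: it was at -1.88 in the parotid and not well above background on the other arrays, where its log2 differences from the parotid were -1.77 and -1.86 or larger in size. No direction can therefore be given for Scnn1a as a gene.

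**Figure D3:**
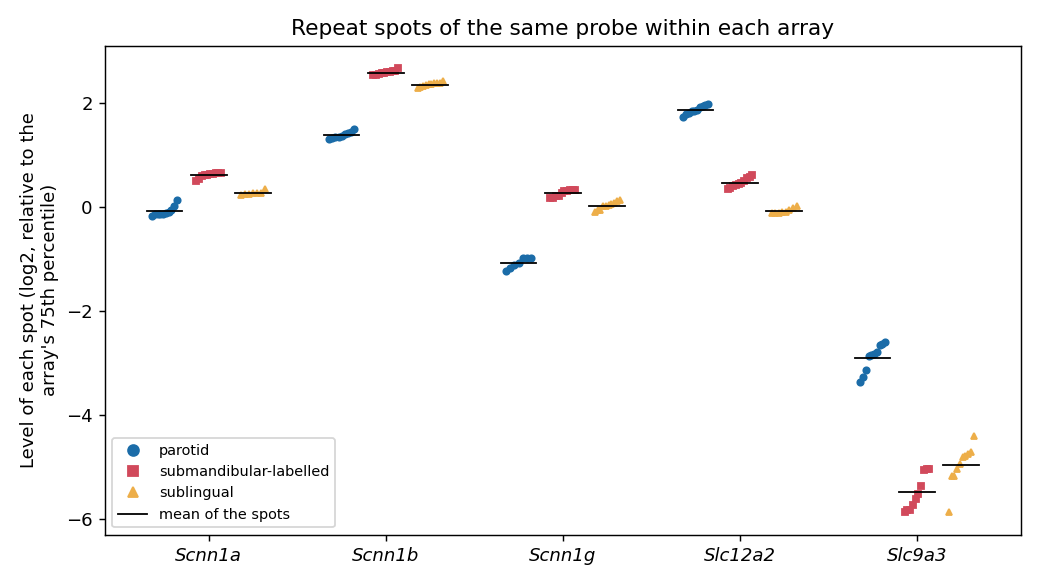
Level of every unflagged repeat spot of 5 transport probes printed 10 times on each array, with the mean as a black bar; the vertical axis is log2 signal relative to the array's 75th percentile, and colours and symbols are the 3 arrays. Spots are repeats within 1 array and not animals. The parotid spots lie lowest for Scnn1b and Scnn1g and highest for Slc12a2 and Slc9a3.

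Scnn1b and Scnn1g are neighbours, their probes 159 kb apart on chromosome 1 (rn4), and both were higher outside the parotid; their upstream sequences are therefore set side by side. The 250 bases before the RefSeq starts, on the plus strand of GRCr8, lie at chr1:185861126-185861375 for Scnn1b and at chr1:185735975-185736224 for Scnn1g, and capitals again mark GC boxes.
Scnn1b: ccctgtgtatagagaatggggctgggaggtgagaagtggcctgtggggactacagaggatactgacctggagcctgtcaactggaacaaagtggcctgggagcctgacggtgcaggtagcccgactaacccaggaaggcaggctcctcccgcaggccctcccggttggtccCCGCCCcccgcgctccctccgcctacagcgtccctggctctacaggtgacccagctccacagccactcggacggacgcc
Scnn1g: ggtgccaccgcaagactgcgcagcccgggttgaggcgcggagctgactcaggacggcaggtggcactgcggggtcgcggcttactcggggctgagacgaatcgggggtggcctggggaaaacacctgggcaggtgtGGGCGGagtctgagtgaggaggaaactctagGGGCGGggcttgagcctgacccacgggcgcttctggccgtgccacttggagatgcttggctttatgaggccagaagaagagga
Each has a G and C content of 65.6%, Scnn1b holds 1 GC box, on the minus strand 79 bases before the start, and Scnn1g holds 2. The other motifs searched on both strands were the TATA box (TATAAA, in 12.9% of all entries), the CCAAT box (CCAAT, 34.0%), the cyclic AMP response element (TGACGTCA, 1.59%), an E-box (CAGCTG, 12.0%), a forkhead element (TGTTTAC, 3.21%) and the palindromic steroid hormone response element (0.012%). None of these is in the 4 windows shown. No motif's letters contain another's. Entries were matched for 56 of the 75 transport genes, and 47.5% of their 61 windows hold a GC box.

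The accessory subunits of the sodium pump differed little. Atp1b1, the main accessory subunit, was at 7.92, 7.57 and 7.62, Atp1b2 at 0.82, 1.20 and 0.74, and Atp1b3 at 3.71, 4.35 and 4.29. None of these was 2-fold apart between any arrays, and the Atp1b2 values rest on 1 probe, since its other probes were not well above background. Atp1a4, a catalytic subunit of sperm, and Atp1b4 were not well above background on any array.

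Fxyd proteins, single-span membrane proteins that change the pump's affinities, differed most among the pump's genes. Fxyd6, known mainly from the nervous system, was at 3.60 (parotid), 0.53 (submandibular-labelled) and 0.42 (sublingual). It was 8.36-fold and 9.05-fold lower than in the parotid, larger than any other measured difference among the transport genes, with a range over the alternatives from -3.28 to -2.75 and from -3.38 to -2.89 on the log2 scale. Fxyd1, phospholemman, the pump regulator of heart and skeletal muscle, was at 0.80, -0.72 and -1.23, 2.88-fold and 4.09-fold lower. Fxyd7, known from brain, was at 0.71, -0.50 and -0.37, 2.31-fold and 2.11-fold lower, and under 2-fold with normexp and median centring.

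Several markers of nerve were lower outside the parotid as well, though not all. Of 8 probed nerve and Schwann cell markers, 5 were well above background on each array and 2 were not well above background on any. The log2 of their summed linear levels was 4.68, 3.23 and 2.87. Of 6 compared, 4 were lower by 2-fold or more in the submandibular-labelled sample, and 2 were in the sublingual one. The glial factor Sox10, which weighs most in that sum, was at 4.51, 3.02 and 2.41. Nefm, a neurofilament of axons, was by contrast dim in the parotid and exceeded it by at least 1.64-fold and 1.91-fold, and Prph, peripherin, differed by -0.05 on the log2 scale on the sublingual array. For skeletal muscle markers the log2 of the summed linear levels was 0.99, 1.80 and 1.49. Of the 3 compared, however, Acta1 alone was higher than in the parotid (2.53 and 2.01 on the log2 scale). Tnnt3 (-1.07 and -0.51) and Tnni2 (-0.36 and -0.41) lay below it, the list medians were -0.36 and -0.41, and Ckm, muscle creatine kinase, was not well above background on any array. The part of nerve or muscle in the Fxyd differences was not tested.

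Fxyd3, an epithelial member, was higher outside the parotid by less than 2-fold, at 7.61, 8.31 and 8.37. Fxyd2, the gamma subunit of the kidney pump, was level at 3.31, 3.40 and 3.33, although its probe lies only 12.6 kb from that of Fxyd6 on chromosome 8 (rn4). Fxyd5, also called dysadherin, was at 1.24, 0.74 and 0.40 by its brighter probe, and its second probe was not well above background on any array. With the median of both probes its submandibular-labelled difference was -1.27 on the log2 scale. With the percentile taken over probes well above background its sublingual difference was -1.02. Both are past 2-fold. On chromosome 1 the probes of Fxyd5, Fxyd7, Fxyd1 and Fxyd3 lie between positions 86076539 and 86113860 (rn4). Within this stretch Fxyd1 and Fxyd7 were over 2-fold lower than in the parotid on both arrays. By the main processing Fxyd5 was lower and Fxyd3 higher by less than 2-fold. Fxyd4, the colon's channel inducing factor, was not well above background on any array.

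Between the sublingual and submandibular-labelled arrays the transport genes hardly differed. None of 46 compared was 2-fold higher in the sublingual gland, beside 0.966% of all genes, and 1, Slc12a7, was 2-fold lower, beside 0.574%. That call rests on the brightest Slc12a7 probe, and the gene's probes disagreed in direction. None was 4-fold higher (all genes: 0.153%) or lower (0.0669%). The median log2 difference was -0.13, where that of all genes was -0.045, and 33 genes lay below 0 and 13 above. Of the 10458 genes compared in all, 5732 lay below 0 and 4725 above. After Slc12a7 the widest measured differences were those of Cftr (-0.68), Slc4a4 (-0.66), Clcn2 (-0.57) and Nherf1 (-0.57). Over the alternatives they shrank to -0.30 for Cftr, -0.13 for Slc4a4, -0.19 for Clcn2 and -0.48 for Nherf1.

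Other genes of the pathway were counted in lists with earlier results of these data known. Among other chloride channels, ion pumps and their subunits, 31 of 40 listed genes were probed and 15 of these were not well above background on any array. Against the parotid, 3 of 15 compared were higher by 2-fold or more and 1 lower on the submandibular-labelled array (median 0.17), and 2 of 16 higher and 2 lower on the sublingual array (median 0.03). Over all genes the shares were 10.9% higher and 11.3% lower (median 0.10), and 12.5% higher and 12.2% lower (median 0.06). Ttyh3, a tweety family membrane protein, was at 3.67, 1.67 and 1.85, and Bsnd, which encodes the channel subunit barttin, was at 0.95, 0.16 and -0.29. Ano10, another anoctamin, was at 4.74, 6.19 and 6.11, opposite in direction to Ano1. Best4, a bestrophin, was not well above background in the parotid and at -2.18 and -3.26 on the others.

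Among regulators of these transporters, 36 of 39 were probed and 27 compared. On each array 3 exceeded the parotid by 2-fold or more, with 2 and 1 lower in the same order, and the medians were 0.60 and 0.41, where those of all genes were 0.10 and 0.06. The counts of higher genes lay near the shares over all genes, 10.9% and 12.5%, and those lower stand beside 11.3% and 12.2%. Nr3c2, the mineralocorticoid receptor, the receptor of aldosterone, was at 0.97 (parotid), 2.31 (submandibular-labelled) and 2.19 (sublingual). Its part in the Scnn1 differences was not tested. Of the duct markers, Krt7, Krt19 and Cldn4 were over 2-fold higher on the same arrays and Krt18 was higher by less. Elf5 (-0.53 and -1.69 on the log2 scale) and Foxi1 (-0.65 and -0.79) were lower than in the parotid. The part of duct cells was not tested either. Tesc and Chp2, calcineurin B-like proteins that bind sodium-proton exchangers, went in opposite directions: Tesc was at 4.53, 5.53 and 5.98, and Chp2 at -1.71 and -2.97 in the parotid and sublingual glands and not well above background on the submandibular-labelled array. Nherf4, a scaffold related to Nherf1, was at -0.78, -2.70 and -1.74. The kinases Stk39 (2.93, 3.79 and 3.81) and Oxsr1 (0.68, 0.76 and 0.76), which switch on Slc12a2, stayed within 2-fold between all arrays; both are named after their values were seen.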

How the data were processed

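The RNAs of 3 glands were each measured on 1 one-colour Agilent array, grouped by the gland in the labels. The deposited intensity of each spot came, per the file headers, from Feature Extraction 10.1.1.1 (protocol GE1-v5_10_Apr08, design 014879, build rn4) with spatial and multiplicative detrending. The deposited flags hold 0 or 1. The series' value table, made by the authors, holds a linear ratio, the processed signal over a constant for each array (190, 236 and 250; range at most 0.014 on the log2 scale for bright spots) with column medians of 0.152, 0.122 and 0.128; no gene was centred.

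Levels are log2 processed signals minus each array's 75th percentile (186, 228 and 244). Spots with an outlier flag (68, 79 and 73) and control spots were left out; none was saturated. Spots of a probe were averaged, and a probe counted as well above background where at least 0.5 of its spots did. The lowest such levels, used as bounds on the dim side, were -3.43, -3.65 and -3.74. Of 41012 probes, 20473 matched 1 RefSeq gene (assembly GRCr8, names only), including all 96 transport probes, of which 12 got a newer symbol. A gene's brightest probe on average represents it.

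Members, lists, thresholds and alternatives were chosen with earlier results of these data known. The values of some transport genes are not reported here, although the counts and medians include them; values on all arrays were given for those 2-fold apart and for a list of well-known ones, and up to 4 examples per pathway list by size, with others marked. The counting step was tested on simulated data. Tools were Python 3.11.15, pandas 2.3.3, numpy 2.4.6, matplotlib 3.10.9 and, for normexp (offset 50), limma 3.58.1 in R 4.3.3.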

Additional observations from a re-analysis of the deposited data

How the results depend on the processing

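Of the 16 transport genes 2-fold apart from the parotid on the submandibular-labelled array, 8 stayed so under every alternative that gave a value, as did 7 of 18 on the sublingual array, and none turned its sign. As said for Ano1, some alternatives could not change the value of some of these genes. The counts on the submandibular-labelled array (6 higher, 10 lower) became 2 and 6 with normexp. On the sublingual array (4 and 14) they became 1 and 7 with normexp, and 7 were higher with median centring. At 4-fold on the submandibular-labelled array (1 higher, 2 lower), 2 were higher with quantile normalization, with median centring and without bounds, 1 was lower with normexp and 6 without bounds. At 4-fold on the sublingual array (1 and 3), 0 were higher with quantile normalization and with the percentile taken over probes above background, 2 were higher without bounds, 1 was lower with normexp or median centring and 6 without bounds. Between the sublingual and submandibular-labelled arrays, the 1 gene 2-fold lower became 0 with the median of a gene's probes and 2 without bounds, and 1 was then 4-fold lower.

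The median difference from the parotid on the submandibular-labelled array (-0.31) was 0.000577 with median centring and -0.55 with the percentile over probes above background, a choice that moved all genes by -0.20. On the sublingual array (-0.38) it was -0.27 with normexp, -0.14 with median centring and -0.57 with that percentile. Between the sublingual and submandibular-labelled arrays (-0.13) it was -0.22 with quantile normalization. For each of these changes the cause was not tested. No paired analysis was possible because each gland has 1 array. Signal over background limits Cftr, Clcn2, Clcn5, Slc4a1, Slc4a4, Slc4a8, Slc9a3 and Slc9a4, which lay near the lowest level counted as above background on at least 1 array.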
